A study of Mus musculus with 6 samples.

Results

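The baseline of wild type epiphyseal chondrocytes was described from the 3 wild type libraries of a series of 6 libraries. The other 3 libraries came from Girk3-/- mice, which lack a potassium channel subunit, and were not used here. Members were chosen by the genotype label WT alone. The cells were primary chondrocytes of 5-day-old C57BL/6 mice, carried no transgene or treatment per the labels, and were freed from cartilage by collagenase in culture medium, the last step overnight. Polyadenylated RNA was sequenced, and levels are given as RPKM, reads per kilobase of gene length scaled to library size, as mean ± SD over n = 3 libraries unless all 3 values are printed. The libraries are called replicates 1, 2 and 3. All genes with an identifier were kept except those of chromosomes X and Y, which left 39153 of 43346 genes. There is 1 group and no contrast, so no test was made and no p-value is given.

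The epiphysis of a newborn long bone is a cartilage mould in which chondrocytes pass through zones. Superficial cells lie at the joint surface. Rounded resting cells feed columns of dividing cells, which enlarge through prehypertrophic and hypertrophic stages before bone replaces them. The matrix they lay down is a network of collagen II fibrils, carrying collagens IX and XI, filled with the proteoglycan aggrecan, and Sox9 is the transcription factor that drives many of its genes.

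Counting depth was similar, at 44291556 counts in replicate 1, 50361885 in replicate 2 and 42252651 in replicate 3. The libraries were labelled male, but 4 genes of the Y chromosome, Uty, Kdm5d, Ddx3y and Eif2s3y, gave 0 counts in each, and Xist, the RNA of the inactive X chromosome, had 106405, 144825 and 82827 counts. The sex label therefore went against the transcripts in 3 of 3 libraries. All 37 mitochondrial genes also had 0 counts, so the shares of summed RPKM hold no mitochondrial transcripts. Whether these genes were counted at all could not be told here, and their 0 is not read as a level. Any other gene listed at 0 may still hold up to 3 counts by counting error alone, or 0.0596 to 0.0710 CPM (counts scaled to library size). Of the genes kept, 12836 reached a mean of at least 1 RPKM and 409 a mean of at least 100 RPKM.

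The markers of the label were all present. Col2a1, the collagen II chain (chromosome 15, 97975602 to 98004695, mm10), had 6937, 5196 and 8887 RPKM in replicates 1, 2 and 3. Acan, aggrecan (chromosome 7, 79053483 to 79115099), had 785, 719 and 1126 RPKM. Sox9 had 59.2, 57.7 and 92.4 RPKM. Replicate 3 was the highest for all 3 of these genes. Matn1, a matrilin that links collagen fibrils in immature cartilage, had 105, 54.0 and 54.6 RPKM, with replicate 1 the highest. Prg4, the lubricant of the joint surface, had 136, 158 and 276 RPKM, and Col10a1, the collagen of hypertrophic cells (chromosome 10, 34389981 to 34397085), had 836, 706 and 1070 RPKM. Replicate 3 was again the highest for both. In these bulk libraries fewer cells of a type and less RNA per cell cannot be told apart.

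A small number of secreted and ribosomal genes held much of the RPKM. Col2a1 ranked first with 2.33% ± 0.645 of the summed RPKM. Spp1, osteopontin, a secreted phosphoprotein of mineralizing tissue, ranked second at 5228, 5304 and 6338 RPKM. The translation factor Eef1a1 followed at 3503 ± 231 RPKM. Mmp3, the protease stromelysin-1, came after it at 2343, 2602 and 4765 RPKM, with replicate 3 the highest and 2.03-fold above replicate 1 on the RPKM + 0.1 scale. It was followed by the iron store Fth1, by fibronectin (Fn1, 2403 ± 799.6 RPKM), by the collagen-binding protein Sparc (2364 ± 417 RPKM) and by Chil1, a secreted chitinase-like protein. Chil1 had 1782, 1674 and 3579 RPKM, so it too was highest in replicate 3.

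The 10 leading genes held 9.74%, 9.34% and 13.2% of the summed RPKM in the 3 libraries, and the 100 leading genes held 29.1%, 28.7% and 33.0%. Replicate 3 was the most concentrated by both measures. Genes of the 84 ribosomal proteins took 10.4% ± 0.360 and made up 9 of the 30 leading genes. Matrix and secreted genes among those 30 were Col2a1, Spp1, Fn1, Sparc, Chil1, Mmp3, Col6a1, Dcn, Mgp, Col9a1 and Acan. Mgp, an inhibitor of cartilage mineralization, stood at 1073 ± 192 RPKM, and P4hb, a subunit of the enzyme that hydroxylates collagen, at 933 ± 103 RPKM.

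H19, an imprinted non-coding RNA of fetal tissue (chromosome 7, 142575529 to 142578143), was also among them at 1258, 1161 and 490 RPKM. Replicate 3 was the lowest. Its embedded microRNA gene Mir675 followed the same order at 1921, 1549 and 724 RPKM. Mir675, Gm22133 (inside Ftl1) and Gm27597 (inside Rpl19) are shorter than 300 bases and lie within a longer gene, so their reads and those of the host gene cannot be told apart. Of the 100 leading genes, 12 were that short and 9 of them lay within another gene.

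**Figure D1:**
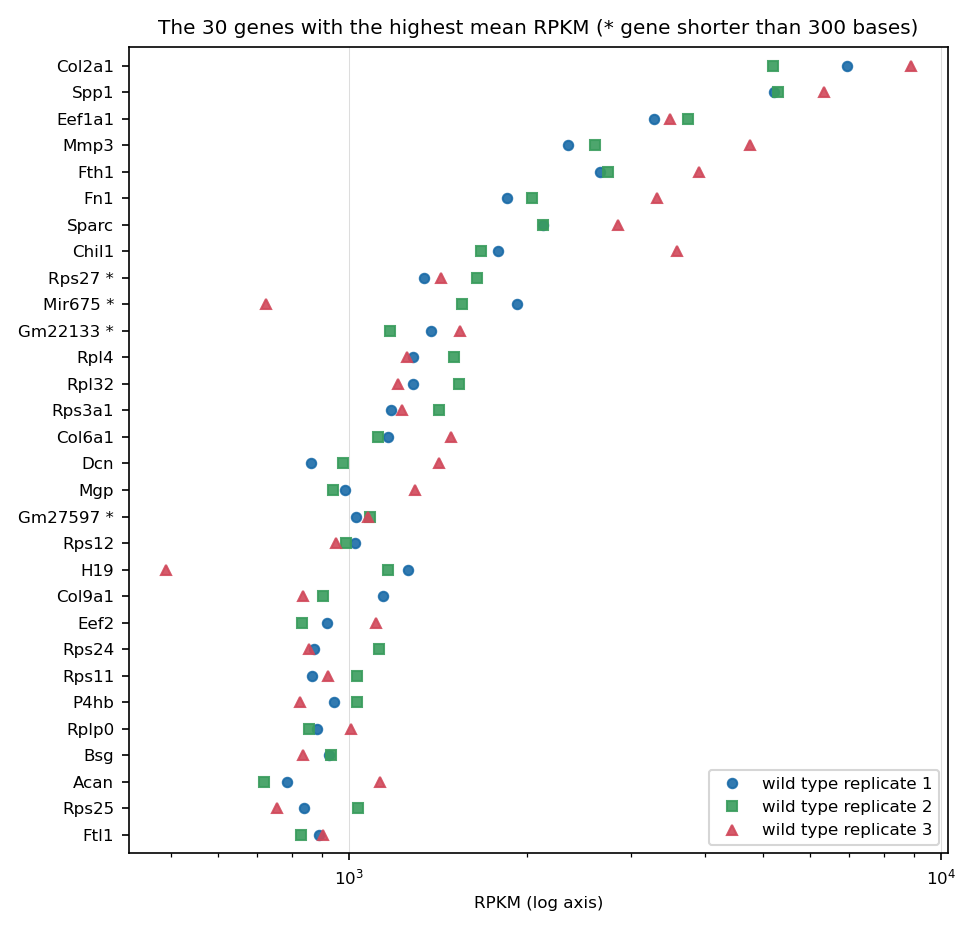
RPKM (log axis) of the 30 genes with the highest mean, with 1 point per wild type replicate and an asterisk for genes shorter than 300 bases. Col2a1 and Spp1 lead, and replicate 3 is the highest for Mmp3, Fn1 and Chil1 and the lowest for H19 and Mir675.

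Of 42 collagen genes 32 reached 1 RPKM. Together they held 5.04%, 3.97% and 5.83% of the summed RPKM. After Col2a1 came Col6a1 (1165, 1117 and 1486 RPKM), a chain of the collagen VI of the pericellular matrix. Col9a1, a chain of the collagen IX that coats collagen II fibrils, had 1140, 904 and 835 RPKM. Col10a1 was next, and Col11a1, a chain of the collagen XI in the fibril core, stood at 910, 735 and 801 RPKM. Col9a1 exceeded Col11a1 in each library. Col10a1 lay below both in replicates 1 and 2 and above both in replicate 3, so its place is not fixed.

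Within the fibril-associated chains, Col9a1 exceeded Col9a2 (603 ± 118 RPKM) and Col9a3 (351 ± 54.7 RPKM) in each library. Col11a2 (519 ± 128 RPKM) lay below Col11a1. The collagen VI chains Col6a3 (635 ± 133 RPKM) and Col6a2 (323 ± 63.0 RPKM) followed Col6a1. Col27a1, a fibrillar collagen of cartilage, was lower at 54.2 ± 13.1 RPKM. Of the 7 cartilage collagens 0 differed over 2-fold between libraries, beside 6.79% of all genes at 1 RPKM or more. Replicate 2 was the lowest for 6 of the 7, beside 24.5% of all genes at 1 RPKM or more.

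Collagens of bone and loose connective tissue lay well below Col2a1. Col1a1, the main chain of bone collagen, had 396, 320 and 332 RPKM, and Col1a2 had 236, 182 and 225 RPKM. Col2a1 exceeded Col1a1 17.5-, 16.2- and 26.8-fold in replicates 1, 2 and 3. Col3a1, a collagen of fibroblasts and vessels, had 411, 341 and 234 RPKM and was lowest in replicate 3. Among the collagens that reached 1 RPKM the widest spread was that of Col14a1, a fibril-associated collagen of fibrous tissue, at 16.2, 18.4 and 5.18 RPKM. The lowest chains, Col4a3 and Col4a4 of specialized basement membranes, stayed at 0.0249 ± 0.00795 and 0.0347 ± 0.00732 RPKM.

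**Figure D2:**
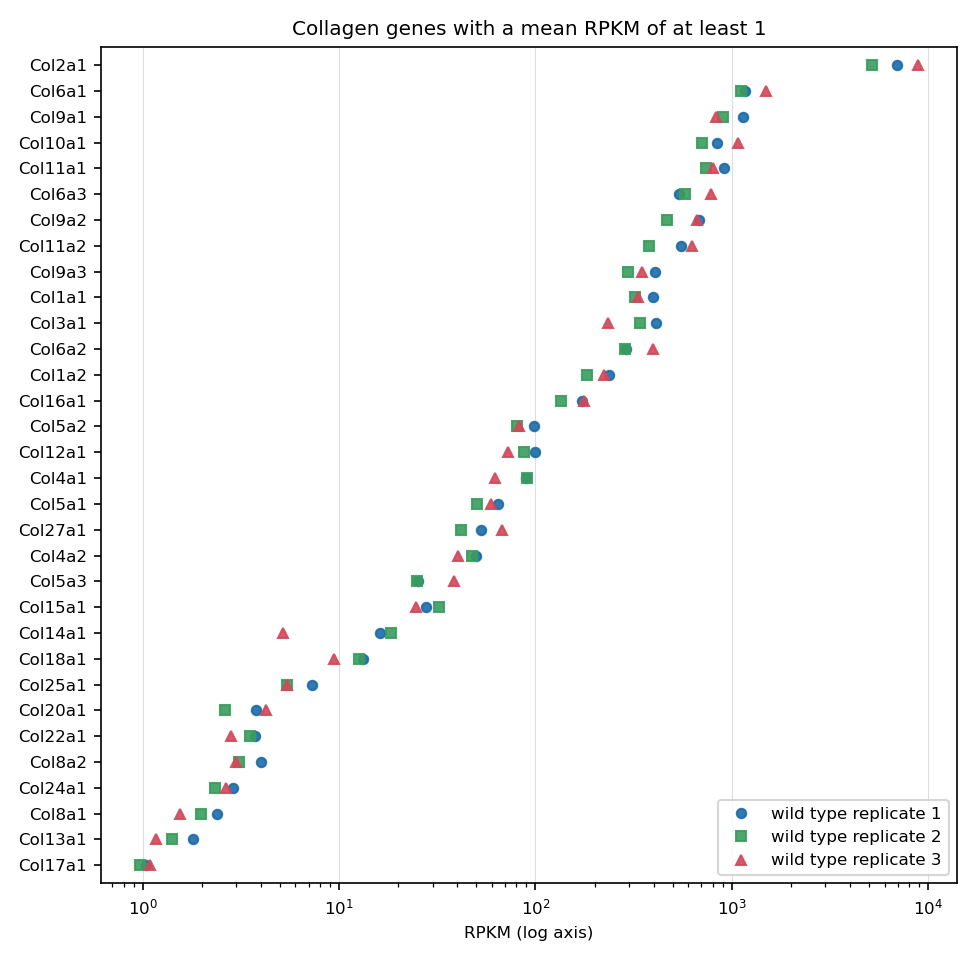
RPKM (log axis) of the 32 collagen genes with a mean of at least 1, ordered by mean, with 1 point per wild type replicate. The chains of collagens II, VI, IX, X and XI fill the top 9 places, and Col14a1 has the widest gap between replicate 3 and the other libraries.

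Among the proteoglycans, Dcn (decorin, a small leucine-rich proteoglycan that binds collagen) was the highest at 863, 978 and 1420 RPKM, ahead of Acan. Hapln1, the link protein that ties aggrecan to hyaluronan, was even at 534.6, 534.5 and 566.7 RPKM. Lum, another small leucine-rich proteoglycan, stood at 216 ± 18.8 RPKM. Of the 12836 genes with a mean of at least 1 RPKM, 6.79% differed over 2-fold between the highest and the lowest library on the RPKM + 0.1 scale, and 3 of these 10 proteoglycan genes did. They were Prelp (88.2, 78.8 and 168 RPKM), Chad (57.7, 75.6 and 133 RPKM) and Vcan (8.71, 10.7 and 4.56 RPKM). Prelp and Chad, both leucine-rich proteins that anchor cells or fibrils, were highest in replicate 3, while Vcan, the proteoglycan of immature and loose tissue, was lowest there. With replicates 1 and 2 alone 0 of the 10 differed over 2-fold, and with replicates 1 and 3 alone 1 did. Here and below, members named for differing over 2-fold were chosen after their values were seen.

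Adaptor glycoproteins were led by Comp, a pentameric collagen-binding protein, at 332, 277 and 426 RPKM. Thbs1, a thrombospondin of the matrix, had 299, 246 and 310 RPKM. Of the matrilins, Matn1 (71.3 ± 29.4 RPKM) and Matn3 (46.1 ± 10.6 RPKM) were the highest. Both were highest in replicate 1 and nearly equal in replicates 2 and 3. Cilp2, at 2.58, 2.34 and 5.54 RPKM, was the 1 of 8 such genes over 2-fold.

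Small secreted and surface products of chondrocytes were abundant for their size. Clec3a, a cartilage lectin, had 613, 780 and 663 RPKM. Lect1, chondromodulin, which inhibits vessel growth, had 308, 295 and 277 RPKM. Ucma, a product of upper growth-plate chondrocytes, had 174, 212 and 119 RPKM, and 3110079O15Rik, which encodes the surface proteoglycan Snorc, had 154, 119 and 229 RPKM. These last genes went opposite ways, with replicate 3 lowest for Ucma and highest for 3110079O15Rik. Cytl1, a secreted cytokine-like protein, was the 1 of 8 over 2-fold, at 75.5, 103 and 36.1 RPKM, again lowest in replicate 3, and after scaling for library composition (TMM) 2 of 8 were over 2-fold. Summed over the list, the libraries lay close together at 1597, 1750 and 1587 RPKM.

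Enzymes that fold, hydroxylate and cross-link collagen summed to 2857, 2932 and 2697 RPKM. Of these 0 of 19 differed over 2-fold, beside 6.79% of all genes. Their median ratio between highest and lowest library was 1.24, close to the 1.25 of all genes. Serpinh1, the collagen chaperone, stood at 395 ± 68.3 RPKM, the prolyl isomerase Ppib at 357 ± 18.8 RPKM and the prolyl hydroxylase subunit P4ha1 at 250.3 ± 29.9 RPKM.

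Transcription factors of the lineage were low beside the matrix genes, and 26 of 27 reached 1 RPKM. Hif1a, the hypoxia factor, led at 120, 116 and 107 RPKM, followed by Sox9. Next were Mef2d at 34.5 ± 4.77 RPKM, Trps1 at 15.4 ± 0.259 RPKM and Foxc1 at 11.0 ± 2.46 RPKM. Sp7 and Runx2, factors of hypertrophic cells and osteoblasts, stood at 9.50 ± 1.21 and 9.38 ± 2.17 RPKM, and Foxa3 at 8.98 ± 0.441 RPKM. Foxc1 exceeded Sp7, Runx2 and Foxa3 in each library, while the order among Sp7, Runx2 and Foxa3 changed between libraries and is not fixed. Sox5 (6.57, 7.31 and 8.15 RPKM) and Sox6 (7.91, 7.29 and 6.202 RPKM), the partners of Sox9 at cartilage genes, were about equal. Sox9 exceeded Sox5 9.01-, 7.89- and 11.3-fold in replicates 1, 2 and 3. Dlx6, at 0.117 ± 0.0222 RPKM, was the factor below 1 RPKM, and it overlaps the antisense gene Dlx6os1 and is uncertain.

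Of the 26 factors 0 differed over 2-fold, beside 6.79% of all genes. The median over the list of the ratio between highest and lowest library was 1.27, beside 1.25 over all 12836 genes. Replicate 3 was the highest library for 20 of the 26 factors, beside 25.9% of all genes. With TMM scaling it was the highest for 22 of them, and for 5452 of the 12836 genes.

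Each zone of the epiphysis was represented, with hypertrophic genes the most abundant. In the superficial list Prg4 was followed by Thbs4, a thrombospondin of joint and tendon tissue, at 96.6, 99.4 and 50.7 RPKM. Prg4 was highest and Thbs4 lowest in replicate 3. Clu, clusterin, a secreted chaperone, had 28.4, 20.8 and 48.2 RPKM. Gas1 (29.0 ± 2.34 RPKM), Cilp (19.7 ± 5.18 RPKM), Abi3bp (15.4 ± 1.72 RPKM), Gdf5 (13.2 ± 2.47 RPKM) and Erg (9.54 ± 0.760 RPKM) completed the 8 highest members. Gdf5 is a growth factor of joint-forming cells and Erg a transcription factor of articular chondrocytes. Prg4 and Clu, both highest in replicate 3, and Sfrp2, at 1.59, 1.41 and 0.615 RPKM, were the 3 of 14 over 2-fold. With replicates 1 and 2 alone 0 of the 14 were.

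Resting zone genes were low except for Nt5e, the surface enzyme CD73 that forms adenosine, at 133, 154 and 173 RPKM. Apoe, a lipid carrier, stood at 19.98 ± 4.99 RPKM. Grem1, a BMP antagonist, stood at 11.6 ± 1.33 RPKM and Wif1, a Wnt inhibitor, at 11.2 ± 3.33 RPKM. Foxa2 (6.24 ± 0.497 RPKM) and Clec3b (5.82 ± 3.47 RPKM) followed. Pthlh, the signal by which resting and periarticular cells hold back hypertrophy, had 2.97, 2.81 and 4.80 RPKM, highest in replicate 3. Clec3b, at 5.65, 9.38 and 2.44 RPKM, was the 1 of 7 over 2-fold and was lowest in replicate 3. Spon1, Sfrp5 and Axin2 did not reach 1 RPKM.

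Of the 14 prehypertrophic genes 0 were over 2-fold, beside 6.79% of all genes, and their median ratio between highest and lowest library was 1.36, above the 1.25 of all genes. Bmp6, a bone morphogenetic protein, had 49.3, 51.6 and 61.3 RPKM. Fgfr3, the receptor that restrains chondrocyte division, had 62.5, 44.4 and 49.8 RPKM. Prkg2, a kinase needed for growth-plate maturation, stood at 29.4 ± 2.41 RPKM and Pth1r, the receptor for the Pthlh signal, at 16.5 ± 3.31 RPKM. Sik3 (14.9 ± 0.938 RPKM), Ptch1 (11.3 ± 1.67 RPKM), Runx2 and Mef2c (6.91 ± 0.627 RPKM) followed. Ihh, the hedgehog ligand of prehypertrophic cells, was low and steady at 3.67, 3.33 and 3.45 RPKM. Ptch1, the hedgehog receptor and target gene, thus exceeded its ligand, while Gli1, another target, was listed at 1.85 ± 0.509 RPKM but overlaps Arhgap9 and is uncertain.

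Hypertrophic genes summed to 7332, 7196 and 8759 RPKM, of which Spp1 alone gave most. Col10a1 came next. Mmp13, the collagenase of terminal chondrocytes, had 671, 591 and 766 RPKM. Vegfa, the signal that draws in vessels, had 272, 302 and 285 RPKM. Genes of mineral handling were lower: Ank (100.1, 90.5 and 65.1 RPKM) exports and Enpp1 (82.6 ± 2.79 RPKM) generates pyrophosphate, while Alpl, the phosphatase that removes it, stood at 7.45 ± 0.563 RPKM. Mmp9, a gelatinase also made by osteoclasts, had 38.2 ± 5.26 RPKM and Cd200 had 28.1 ± 7.78 RPKM. Ibsp, bone sialoprotein, had 24.8, 19.4 and 16.1 RPKM, so that Spp1 exceeded it 211-, 274- and 395-fold. Phospho1 shares its span with Zfp652 and is uncertain.

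Of the 14 hypertrophic genes 0 differed over 2-fold, beside 6.79% of all genes. Replicate 3 was the highest for 10, beside 25.9% of all genes. With TMM scaling it was the highest for 12 of them, and for 5452 of the 12836 genes. The ratio of Col2a1 to Col10a1 was steady, at 8.30, 7.36 and 8.30 in replicates 1, 2 and 3. Col2a1 to Acan was likewise steady at 8.84, 7.22 and 7.89. Col10a1 to Ihh was 228, 212 and 310. The 8 highest members of each zone list thus stayed within 2-fold except for Prg4, Clu and Clec3b.

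**Figure D3:**
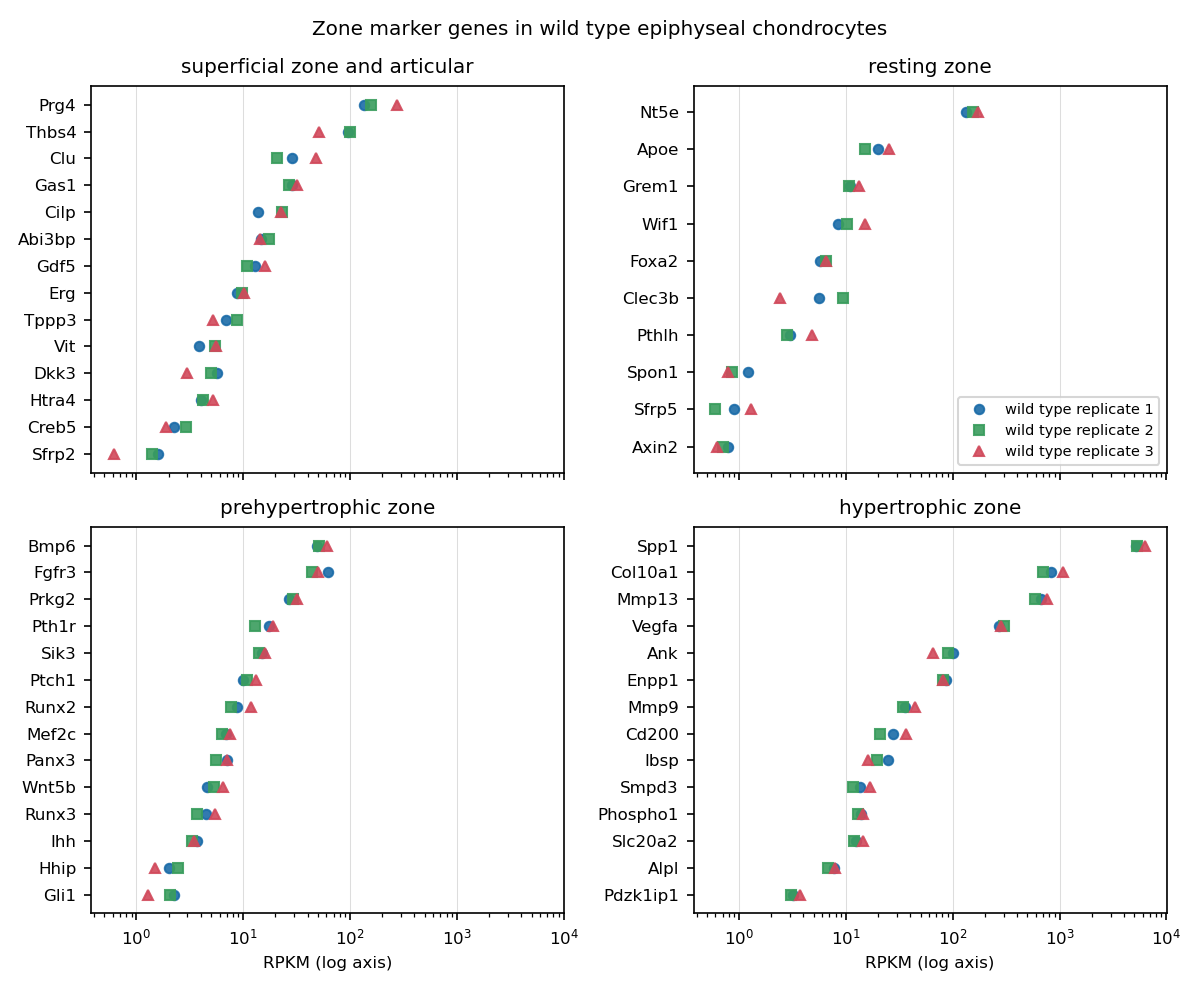
RPKM (log axis) of each member of the 4 zone lists, with 1 point per wild type replicate. Spp1 lies far above the other zone genes, followed by Col10a1 and Mmp13, and Clec3b, Clu and Prg4 show gaps of over 2-fold.

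Proliferation genes were present at moderate levels and were lowest in replicate 3. Among the S phase genes Pcna, the DNA polymerase clamp, had 32.05, 34.2 and 21.4 RPKM, and the helicase subunits Mcm6 (14.5 ± 3.43 RPKM), Mcm3 (14.4 ± 4.05 RPKM) and Mcm7 (11.8 ± 2.16 RPKM) followed. Among the genes of G2 and mitosis Mki67, a marker of dividing cells, had 14.97, 16.95 and 7.95 RPKM. Cdk1, the mitotic kinase, had 12.2, 13.1 and 7.15 RPKM, and Top2a, the topoisomerase that untangles chromosomes, had 11.7, 12.8 and 6.21 RPKM. Replicate 3 was the lowest library for 20 of 20 genes of G2 and mitosis and for 18 of 18 S phase genes at 1 RPKM or more, beside 56.6% of all genes.

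The sums were 129, 132 and 74.4 RPKM for G2 and mitosis and 172, 192 and 120 RPKM for S phase. Of the 20 genes of G2 and mitosis 7 differed over 2-fold, each with replicate 3 apart and low, a class that held 3.71% of all genes. This count fell to 1 with TMM scaling, to 0 with replicates 1 and 2 alone and to 3 without replicate 2, while replicate 3 remained the lowest for 20 of 20 with TMM scaling. Of the S phase genes 1 of 18 was over 2-fold, Mcm5 at 7.14, 8.01 and 3.53 RPKM. Cdc20 and Ccna2 of the first list, and Mcm7, Cdt1, Rfc4, Fen1 and Gins2 of the second, share their span with another gene and are uncertain, and they are included in these tallies.

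The sequence before the start of some of these genes is shown for the CCAAT box, a short promoter element long known from cell cycle genes. The bases come from RefSeq on GRCm38.p6, the same assembly as mm10, and each line holds the 110 bases before the RefSeq start on the gene's own strand. The motif was chosen after the values were seen and was searched on both strands of the 250 bases before the start. Capitals mark CCAAT or its reverse complement ATTGG. Top2a lies at chr11:99024190-99024299 and Ccnb1, a mitotic cyclin with 3.68, 4.22 and 2.01 RPKM, at chr13:100786487-100786596, both on the minus strand.
Top2a: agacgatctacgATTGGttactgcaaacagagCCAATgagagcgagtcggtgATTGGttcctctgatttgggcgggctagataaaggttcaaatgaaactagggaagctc
Ccnb1: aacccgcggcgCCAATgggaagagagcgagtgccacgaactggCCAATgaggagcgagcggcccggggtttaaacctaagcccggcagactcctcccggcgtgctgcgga
CCAAT was found in 15 of the 17 genes of G2 and mitosis that had a window (88.2%) and in 11 of 17 S phase genes (64.7%). It was found in 9632 of all 25748 windows (37.4%), and in 39.8% of the windows of genes at 1 RPKM or more. The cartilage collagens held it in 2 of 5 windows, and Col2a1 had no window. TTTGAA, the letters of the cell cycle homology region, was found in 7 of 17 windows of G2 and mitosis and in 17.9% of all windows. A match is a description of letters and not of a bound site.

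Markers of other cell types were detected in each library, together at 1.30%, 1.04% and 0.727% of the summed RPKM for 189 genes of 17 lists. The 35 genes of the 4 cartilage matrix lists held 5.32%, 4.40% and 6.32%. Replicate 3 had the lowest share of the first and the highest share of the second. The part of other cells in the spread of any gene was not tested.

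Bone cell genes were led by collagen I. The osteoblast list summed to 665, 532 and 580 RPKM, most of it from Col1a1 and Col1a2. Dmp1, a matrix protein of osteocytes, had 14.8, 12.02 and 5.94 RPKM, and Omd had 8.87 ± 0.623 RPKM. Bglap and Bglap2, the near-identical osteocalcin genes, had 1.29 ± 0.345 and 1.85 ± 0.467 RPKM, and Sost, the osteocyte inhibitor of Wnt signals, had 0.0992 ± 0.0760 RPKM. Dmp1 and Ifitm5 were the 2 of 8 over 2-fold, both with replicate 3 low, and 0 of 8 were with replicates 1 and 2 alone. Of the osteoclast genes 0 of 5 were over 2-fold, beside 6.79% of all genes. Their median ratio between the highest and lowest library was 1.28, beside 1.25 over all genes. Ctsk, the main collagen-degrading cathepsin, had 110, 123 and 91.8 RPKM and Acp5, the acid phosphatase of osteoclasts, had 17.3, 14.4 and 12.6 RPKM. Itgb3, an integrin chain, had 12.7 ± 0.802 RPKM, while 5 of the 10 list genes, among them the calcitonin receptor Calcr, stayed below 1 RPKM.

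Genes of perichondrium, fibroblasts and tendon summed to 651, 580 and 349 RPKM. Postn, a matrix protein of fibrous tissue, had 68.6, 70.6 and 17.0 RPKM. Pdgfra, a mesenchymal growth factor receptor, had 43.3, 45.0 and 33.0 RPKM, and Ly6a, a surface marker of fibroblast progenitors, had 46.5, 44.1 and 16.0 RPKM. Replicates 1 and 2 were close to each other for these genes, and replicate 3 was the lowest. In all 6 of 12 differed over 2-fold, each with replicate 3 low, and 0 of 12 did with replicates 1 and 2 alone.

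Vessel genes were low. Cdh5, the cadherin of endothelial junctions, had 10.6, 13.9 and 7.55 RPKM, Pecam1 had 6.25, 8.28 and 4.84 RPKM, and Cldn5, a tight junction protein, had 5.58, 8.92 and 2.06 RPKM. Replicate 2 was the highest for 12 of 14 endothelial genes, beside 44.5% of all genes. Cldn5, Kdr and Tek were the 3 of 14 over 2-fold, a count of 0 with replicates 1 and 2 alone. In the pericyte and smooth muscle list Cspg4, a proteoglycan that chondrocytes also make, led at 102, 74.7 and 158 RPKM. Cspg4 was highest in replicate 3, whereas Acta2, smooth muscle actin, had 30.1, 18.2 and 14.0 RPKM and Pdgfrb 15.3 ± 1.95 RPKM. Tagln, at 18.6 ± 5.22 RPKM, overlaps Pcsk7 and is uncertain. Of the 11 genes 6 were over 2-fold, 4 with replicate 3 low, and 0 were with replicates 1 and 2 alone.

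Muscle genes were present in small amounts, and both muscle and nerve sheath genes were lowest in replicate 3. Mylpf, a light chain of fast muscle, had 12.03, 11.8 and 4.30 RPKM, and Tnnt3, a troponin, had 5.37, 5.35 and 3.77 RPKM. Acta1 and Tnnc2, at 9.997 ± 4.37 and 5.36 ± 2.60 RPKM, overlap other genes and are uncertain. Of the 9 muscle genes at 1 RPKM or more 6 were over 2-fold, each with replicate 3 low, and 0 were with replicates 1 and 2 alone.

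Mbp, a myelin protein, had 11.4, 6.88 and 4.47 RPKM, and Ncmap, a myelin membrane protein, had 26.5, 22.5 and 19.4 RPKM. S100b, which chondrocytes also express and which overlaps Dip2a, was even at 25.01, 24.9 and 23.3 RPKM. Neuron markers summed to under 1 RPKM in each library, and Snap25 had 0 counts in 3 of 3. Among the keratinocyte genes Sfn was the highest at 8.89 ± 0.374 RPKM and Ivl had 0 counts throughout. Among the adipocyte genes Fabp4, which vessels also express, had 12.9, 21.8 and 7.93 RPKM, while Lep, Cidec and Cfd had 0 counts in 3 of 3 libraries.

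Blood cell markers made the largest differences between libraries. Hemoglobin genes marked red cells, with Hbb-bs at 144, 182 and 49.2 RPKM and Hbb-bt at 48.6, 67.1 and 12.4 RPKM. Hba-a1 and Hba-a2 stood at 27.9 ± 12.8 and 21.5 ± 10.6 RPKM. Each pair is nearly identical in sequence, so its split is uncertain. Replicate 2 was the highest and replicate 3 the lowest for 6 of 6 erythroid genes, and all 6 were over 2-fold. With replicates 1 and 2 alone 0 of the 6 were.

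Most neutrophil genes followed another order. S100a9 and S100a8, the paired calcium-binding proteins of neutrophils, had 646, 398 and 196 RPKM and 475, 308 and 114 RPKM. Ngp, a granule protein, had 65.5, 44.9 and 21.0 RPKM. Retnlg, a resistin-like protein of mature neutrophils, had 56.0, 11.8 and 12.1 RPKM, with replicate 1 alone high. Replicate 1 was the highest for 8 of 10 neutrophil genes, beside 29.6% of all genes. The exceptions, highest in replicate 2, were Elane (2.94, 3.60 and 1.28 RPKM) and Mpo (2.14, 2.72 and 0.891 RPKM). Prtn3, at a mean of 0.846 RPKM, was also highest in replicate 2. All 10 were over 2-fold, 6 with replicate 3 apart and low and 4 with replicate 1 apart and high, a class of 0.686% of all genes. The count was 10 without replicate 2, 6 without replicate 1 and 1 without replicate 3.

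Among macrophage genes Lyz2, a lysozyme that neutrophils share, had 81.2, 62.6 and 25.1 RPKM. Cd14 had 53.1, 38.6 and 69.4 RPKM and Cd68 had 30.9, 28.5 and 43.6 RPKM, both highest in replicate 3. Tyrobp, a signalling adaptor of myeloid cells, had 34.7, 24.8 and 16.5 RPKM. The list was therefore not uniform: 5 of 10 were over 2-fold with replicate 3 low, but the sums were 265, 209 and 190 RPKM. The count was 3 with TMM scaling, 2 without replicate 1 and 0 without replicate 3. Mast cell proteases were present at single-digit levels, with Mcpt4 at 6.56, 5.85 and 1.03 RPKM and Cma1 at 6.95, 5.56 and 0.705 RPKM. Of the 5 mast cell genes 4 were over 2-fold with replicate 3 low, the exception being Kit, and 0 of 5 were with replicates 1 and 2 alone.

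Platelet genes did not follow these patterns. Pf4, a platelet chemokine, had 21.0, 22.4 and 20.8 RPKM, and Ppbp had 6.52, 7.07 and 5.605 RPKM. Of the platelet genes 0 of 4 were over 2-fold, beside 6.79% of all genes. Lymphocyte genes were near the detection limit. Cd79a and Cd79b of B cells had means of 0.832 and 0.843 RPKM, each highest in replicate 2. The higher Ebf1, at 2.61 ± 0.468 RPKM, is also a factor of mesenchymal cells. In the T and NK list Icos stood at 5.23, 6.29 and 3.37 RPKM, but Cd3e and Gzma had 0 counts in 3 of 3 libraries and Lck had 0.468 ± 0.238 RPKM.

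**Figure D4:**
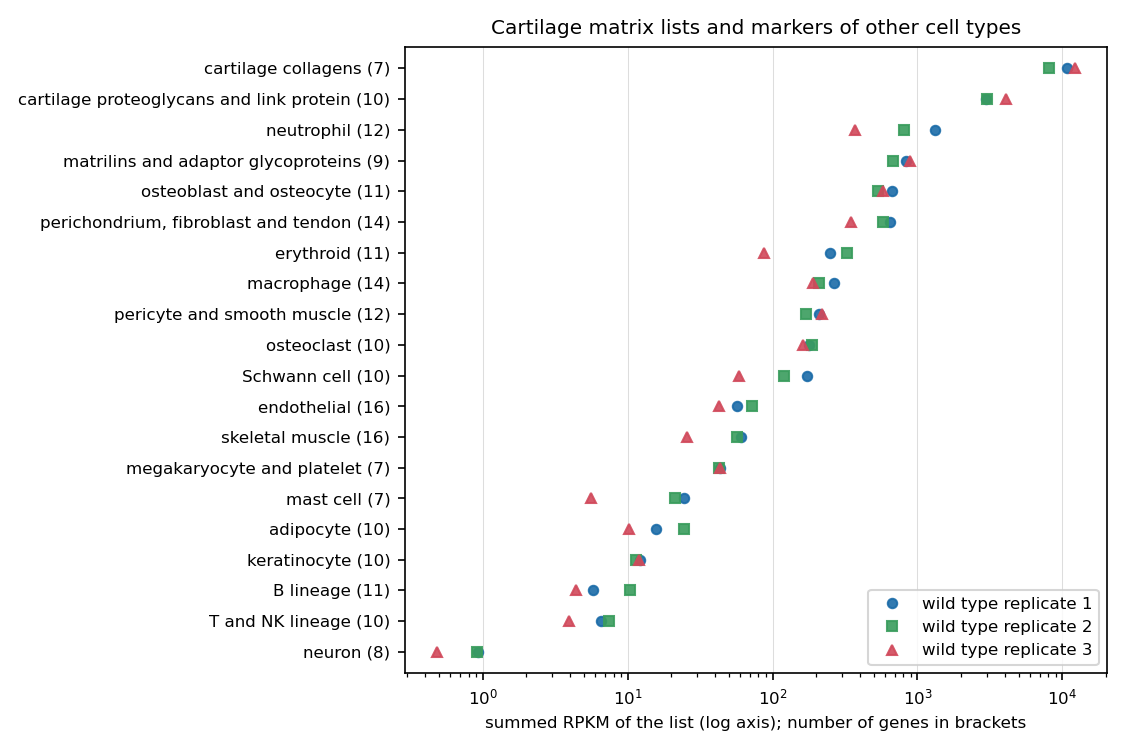
Summed RPKM (log axis) of 3 cartilage matrix lists and of the lists of other cell types, with the number of genes in brackets and 1 point per wild type replicate. Replicate 3 lies below the other libraries for the neutrophil, erythroid, mast cell, Schwann cell, muscle and perichondrium lists and together with them for the megakaryocyte and keratinocyte lists.

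Genes of stress and inflammation were abundant. Of the immediate early genes, which respond within minutes to handling, Ier3 had 371, 402 and 338 RPKM and Zfp36 had 85.0, 77.5 and 77.8 RPKM. Fos had 57.1, 41.4 and 58.6 RPKM and Egr1 had 57.1, 38.3 and 80.1 RPKM. Egr1 was the 1 of 15 over 2-fold and was lowest in replicate 2. With TMM scaling 4 of 15 were over 2-fold. The sums agreed closely at 941, 913 and 913 RPKM. Undigested tissue is not among these libraries.

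Saa3, an acute phase protein, had 638, 369 and 434 RPKM. Lcn2, an iron-sequestering protein of inflamed cartilage, had 309, 236 and 421 RPKM, and the chemokine Cxcl1 had 159, 198 and 151 RPKM. The inhibitor of NF-kB, Nfkbia, had 143, 162 and 119 RPKM. These genes were highest in different libraries. Of the 14 list members 3 were over 2-fold. Nos2, the inducible nitric oxide synthase, had 33.1, 27.3 and 73.2 RPKM, highest in replicate 3. The chemokines Ccl2 (62.2, 87.0 and 23.4 RPKM) and Ccl7 (31.5, 37.1 and 13.1 RPKM) were lowest there. With replicates 1 and 2 alone 0 of the 14 were over 2-fold. Outside the list, the paralogous acute phase genes Saa1 (81.3, 21.0 and 124 RPKM) and Saa2 (71.9, 14.5 and 77.8 RPKM) were both lowest in replicate 2. Saa1 and Saa2 are close copies, so their split is uncertain.

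Matrix proteases and their inhibitors summed to 3736, 3875 and 6213 RPKM, mostly through Mmp3. Mmp13 came next at 671, 591 and 766 RPKM. Mmp13 and Mmp9 are counted in the hypertrophic sum as well. Mmp2, a gelatinase, had 184, 166 and 144 RPKM and Mmp14, its membrane-bound activator, had 159, 157 and 143 RPKM. The inhibitor Timp3 had 139, 126 and 186 RPKM. Mmp3 and the aggrecanase Adamts5 (4.02, 3.81 and 8.04 RPKM) were the 2 of 13 over 2-fold, both with replicate 3 apart and high, a class that held 0.888% of all genes. Without replicate 3 the count was 0, and it was 1 without replicate 1 or without replicate 2.

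The Mmp3 promoter is shown for the AP-1 element, the binding letters of Fos and Jun proteins known for this gene. It spans chr9:7445712-7445821 on the plus strand of GRCm38.p6, and capitals mark TGANTCA. The motif, like CCAAT, was chosen after the values were seen.
Mmp3: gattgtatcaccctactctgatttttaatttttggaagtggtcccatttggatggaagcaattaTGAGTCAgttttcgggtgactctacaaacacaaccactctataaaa
TGANTCA was found in 2 of 9 windows of the protease list (Mmp3 and Mmp13), in 8 of 66 windows of the 100 leading genes of at least 300 bases (12.1%) and in 7.88% of all windows. It was found in 5.68% of the windows of genes at 1 RPKM or more. The interferon list held it in 3 of 11 windows (27.3%), the hypertrophic list in 2 of 11 and the neutrophil list in 0 of 12. Spp1, Col10a1, Lcn2 and Saa3, searched in the same way, held 0 matches in the 250 bases before the start. Among genes over 2-fold with replicate 3 apart it was in 7 of 41 windows (17.1%) of those high and in 23 of 233 (9.87%) of those low. AACAATG and ACAAAG, letters bound by Sox proteins, were in 0 of 5 windows of the cartilage collagens, and in 3.73% and 18.4% of all windows. Col2a1 had no window and was not searched, and for the others only the 250 bases before the start were.

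Genes of glycolysis and hypoxia were abundant. Pkm, pyruvate kinase, had 750.4, 763.5 and 773 RPKM, 1 of the 8 steadiest genes with a mean of at least 100 RPKM. Gapdh stood at 587 ± 62.0 RPKM, Aldoa at 578 ± 22.4 RPKM and the glucose transporter Slc2a1 at 492 ± 51.2 RPKM. Of the 19 genes 0 were over 2-fold, beside 6.79% of all genes. The steadiest gene was Rpl19, at 486, 491 and 486 RPKM, followed by Iqgap1, Lamp1, Oat, Prelid1, Gnb2l1, Pcbp2 and Pkm.

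Genes of the interferon response moved together across the libraries. Bst2, an antiviral membrane protein, had 58.2, 37.5 and 21.7 RPKM. Isg15, a ubiquitin-like modifier, had 42.8, 28.5 and 9.57 RPKM. Ifit3 had 40.1, 25.3 and 8.28 RPKM and Ifit1 had 21.0, 11.7 and 4.68 RPKM, both encoding proteins that bind foreign RNA. For 14 of 14 genes replicate 1 was the highest and replicate 3 the lowest, as deposited and with TMM scaling. All 14 were over 2-fold, each with replicate 3 apart and low. The count was 10 without replicate 1, 14 without replicate 2 and 0 without replicate 3. The median ratio between the highest and lowest library was 4.28 over the list, beside 4.12 over the erythroid list. Irf7 overlaps another gene and is uncertain. Neutrophil sums had the same order, at 1312, 812 and 368 RPKM, and the part of neutrophils in the interferon genes was not tested.

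The promoters of Isg15 and Ifit1 are shown for the interferon-stimulated response element. Isg15 lies at chr4:156200819-156200928 on the minus strand and Ifit1 at chr19:34640779-34640888 on the plus strand of GRCm38.p6. The letters searched were GAAA, any 2 bases and GAAA again. Like CCAAT, they were chosen after the values were seen. Capitals mark these letters or their reverse complement (TTTC, any 2 bases, TTTC), and matches may overlap.
Isg15: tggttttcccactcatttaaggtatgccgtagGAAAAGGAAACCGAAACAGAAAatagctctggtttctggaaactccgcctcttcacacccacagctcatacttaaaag
Ifit1: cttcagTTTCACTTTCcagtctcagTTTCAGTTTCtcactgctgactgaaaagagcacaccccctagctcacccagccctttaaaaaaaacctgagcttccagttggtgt
Isg15 held 3 overlapping matches and Ifit1 held 2 separate ones. The element was found in 7 of the 11 list genes with a window (Bst2, Gbp2, Ifit1, Ifit3, Isg15, Oas1a and Rsad2) and in 894 of all 25748 windows (3.47%). Among all genes over 2-fold with replicate 3 apart and low it was in 30 of 233 windows (12.9%), and in 23 of 222 (10.4%) without the list. Among those with replicate 3 apart and high it was in 0 of 41. It was in 3.12% of the windows of genes at 1 RPKM or more. The hypertrophic list held it in 3 of 11 windows (Mmp13, Spp1 and Vegfa) and the neutrophil list in 0 of 12. The 100 leading genes of at least 300 bases held it in 7 of 66 (10.6%). Ifit3 held 2 matches and Rsad2 1 in the 250 bases, but both held 0 in the 110 bases nearest the start.

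Over all 12836 genes, 871 differed over 2-fold between the highest and the lowest library. Replicate 3 stood apart, meaning that it lay farther from the middle library than the opposite extreme did, in 590 of them (67.7%), low in 476 and high in 114. Replicates 1 and 2 differed over 2-fold in 189 genes, replicates 1 and 3 in 583 and replicates 2 and 3 in 599. The median gene was 0.11 lower on the log2 scale in replicate 3 than in replicate 1, and 0.01 higher after TMM scaling. With TMM scaling 359 genes were low and 193 high in replicate 3, so the low share of those genes went from 80.7% to 65.0%. Of the 829 genes then over 2-fold, 741 were shared with the 871. The spread was wider among low genes, at 8.99% over 2-fold between 1 and 10 RPKM, 3.14% between 10 and 100 RPKM and 4.40% from 100 RPKM.

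Of the genes with a mean of at least 10 RPKM, the 8 with the widest spread included Saa1, Hbb-bt, Saa2, the microRNA gene Mir410 (21.5, 8.23 and 4.04 RPKM), the pseudogene Gm12141 (16.9, 19.2 and 3.75 RPKM), Ifit3 and Retnlg. Replicate 3 was the low library for Hbb-bt, Gm12141 and Ifit3, replicate 2 the low one for Saa1 and Saa2, and replicate 1 the high one for Mir410 and Retnlg.

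Several lists lay above the 6.79% found over all genes. Over 2-fold were 14 of 14 interferon, 10 of 10 neutrophil, 6 of 6 erythroid, 4 of 5 mast cell and 6 of 9 muscle genes. Counts of 0 in lists of this size lie near that share and say little by themselves. The median ratio between highest and lowest library, 1.25 over all genes, was 1.46 for the cartilage collagens, 1.36 for prehypertrophic genes, 1.27 for transcription factors, 1.25 for hypertrophic genes, 1.24 for collagen processing enzymes and 1.21 for glycolysis genes.

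**Figure D5:**
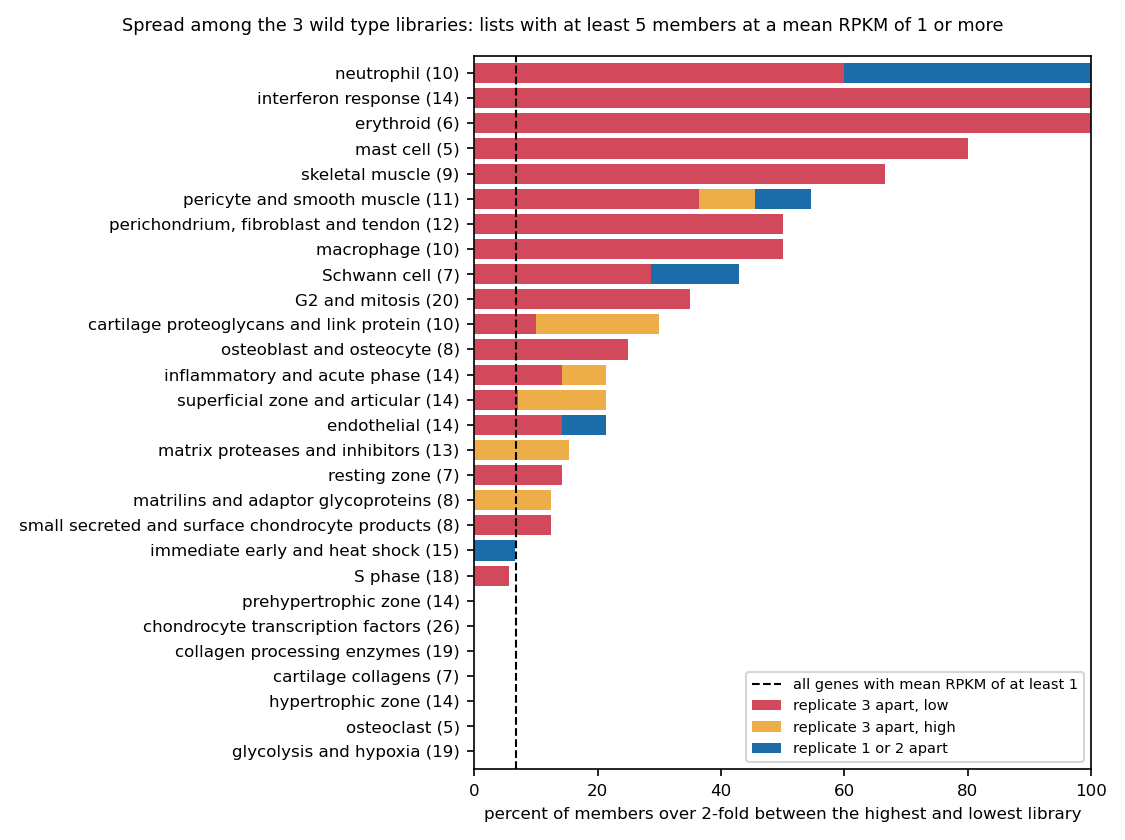
Percent of members (at a mean of at least 1 RPKM, number in brackets) that differ over 2-fold between the highest and lowest wild type library, for lists with at least 5 such members. Colours give which replicate stands apart, and the dashed line is the 6.79% of all genes. Interferon, neutrophil and erythroid genes reach 100%, while 7 lists including cartilage collagens and glycolysis stand at 0.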

How the data were processed

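Primary chondrocytes of 3 wild type mice were measured, and the 3 Girk3-/- libraries were not analysed here. Columns were assigned through the number that each sample title carries, and replicates were numbered in deposit order, so a number pairs nothing. Gene counts are raw, as the authors deposited them, per the file headers. The submitters' processing notes name bcl2fastq 2.19.0, STAR 2.5.2b and mm10. The counting tool and strand setting were not given in the sources used here. RPKM are likewise the authors' values, per the labels' protocols, and match count over column total over listed length plus 1 base. From these, means, SDs, shares of summed RPKM without chromosomes X and Y, and ranges of log2(RPKM + 0.1) were computed with Python 3.11.15. A gene at a mean of at least 1 RPKM was called over 2-fold where that range passed 2-fold. TMM factors and the common dispersion came from edgeR 4.0.16 in R 4.3.3 on genes with a minimum count of 10. The scripts were tested on simulated data.

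Counts differed between each pair of libraries by more than sampling noise (chi-square divided by its degrees of freedom 26.7 to 117), so none was a copy of another. That the libraries are separate animals rests on the labels. The members and the 34 gene lists were chosen with earlier results of these data known. Of 436 list genes 430 matched by symbol, 5 by identifier and 1 did not, and 7 lie on chromosomes X or Y. The text names the markers given for the cells, the 30 leading genes, up to 4 members of a list by mean RPKM (8 for zones and transcription factors), other cell type markers at 0, collagens and the 8 genes with the widest and narrowest spread. Genes sharing a span with another gene that holds over 50% of their counts were called uncertain. The counts of list members over 2-fold without each library and with TMM scaling were alternatives added after seeing the data. Some genes that this rule names are not reported here.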

Additional observations from a re-analysis of the deposited data

How the results depend on the processing

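No paired analysis was possible because there is 1 group and no test. The 12836 genes detected became 7684 at a mean of at least 5 RPKM and 24972 with at least 1 count in any library. As a share of counts in place of RPKM, the 10 leading genes held 13.5% and the 4 cartilage matrix lists 8.58%, and without ribosomal protein genes and genes under 300 bases the matrix lists held 6.41% of the summed RPKM. The 871 genes over 2-fold became 469 with a pseudocount of 1, 160 at a mean of at least 10 RPKM and 3444 over all genes with at least 1 count. Leaving out 1 library gave 184 (without replicate 3) to 571 (without replicate 1), with the mean of at least 1 RPKM taken over the 2 libraries left. The biological coefficient of variation of 0.177 ranged from 0.106 without replicate 3 to 0.215 without replicate 1. For single lists and markers 230 values moved by less than the spread among libraries and 42 by more, of which 24 were shares of counts and 17 left out ribosomal and short genes. A mean of 3 libraries cannot move by its SD when 1 library is left out or the median is taken. The 34 values of each such setting thus stayed within the spread by construction and say nothing about stability. The 3 libraries limit every SD, and depth limits genes near 0 counts, such as Cd3e. Counts of list members over 2-fold moved by over 1.5 times in 22 of 33 lists without replicate 3, in 7 without replicate 2, in 3 without replicate 1 and in 4 with TMM scaling.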
